A study of Mus musculus with 6 samples.

Results

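The genes described here build the mitotic spindle, duplicate the centrosome and divide the cell in cytokinesis. The list of 50 was made by gene name and its rule uses no measured value, and all 50 are among the 49997 gene symbols of the count table. They comprise 13 mitotic kinesins, 13 other spindle microtubule proteins, 6 cytokinesis genes, 10 centriole and centrosome genes and the 8 subunits of the augmin complex. A member was reported when its counts over the 6 libraries summed to 60 or more, which held for 45 members. The other 5 were Haus1, Haus4, Haus5, Haus7 and Haus8, with 10 to 58 counts. Nearest to that limit, Haus2 lay inside it with 61 counts and Haus4 outside it with 58.

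RNA-seq was done on bone marrow small pre-B cells purified by flow cytometry from C57BL/6 mice aged 6 to 12 weeks, with 3 libraries from wild-type (WT) mice and 3 from ΔrsCBE mice. Small pre-B cells are a late precursor stage of the B lineage, in which most cells have left the cell cycle and rearrange an immunoglobulin light chain gene. The Δ marks a deletion, which the series title links to CTCF-mediated chromatin topology and receptor editing; the labels do not give the deleted interval, and no treatment is named. Whether a library came from 1 mouse or from pooled mice is not given either, so p-values measure the spread between these libraries.

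In mitosis, microtubules grow from the centrosomes and from branch points inside the spindle, and motors of the kinesin family slide, carry or shorten them so that sister chromatids part. After anaphase the overlapping microtubules between the chromatids form the central spindle, which places the contractile ring, and the daughter cells then separate at the midbody. Many of these genes are transcribed mainly in G2 and M phase under a promoter element called the cell cycle homology region, so their mRNA is a marker of dividing cells. In the B lineage, large pre-B cells divide under pre-B-cell receptor and IL-7 receptor signals before they become small pre-B cells.

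The libraries held 428106 to 1300805 counts, and 3 counts per library corresponded to 2.38 to 7.36 counts scaled to a common library total (CPM). Xist and Y-linked counts gave a female pattern in ΔrsCBE replicates 2 and 3 and a male pattern in the other 4 libraries, so the WT group had no female library. Markers of B-lineage and small pre-B cells were detected in every library, with Pax5 at 2811 to 3651 CPM in WT and 3331 to 3578 CPM in ΔrsCBE, Rag1 at 2583 to 3619.7 CPM in WT and 3197 to 3809 CPM in ΔrsCBE, and Il2ra at 652 to 701 CPM in WT and 714 to 788 CPM in ΔrsCBE. Of the 12 markers in this list 0 were called, and 8 had a log2 fold change above 0 and 4 below. At an unadjusted p-value under 0.05, 3 were higher and 2 lower, against 4.22% and 6.02% of all tested genes. Without overlap between the genotypes, 3 were higher and 1 lower, against 7.23% and 8.92% of all tested genes. The higher ones were Il2ra, Blnk and Igk (log2 fold changes 0.12, 0.25 and 0.21, edgeR adjusted p = 0.765, 0.467 and 0.400). The lower one was Cd24a (log2 fold change -0.25, edgeR adjusted p = 0.268). Of 12 markers of pro-B and large pre-B cells, 6 had at least 60 counts, and the sum of the 12 was 5497 to 5851 CPM in WT and 5579 to 6085 CPM in ΔrsCBE. Most of that sum was Smarca4, a chromatin remodeller expressed in many cell types, at 4022 to 4313 CPM in WT and 3982 to 4510.1 CPM in ΔrsCBE. The defining markers Dntt, Igll1, Vpreb1, Vpreb2 and Kit had 0 to 10 counts each in all 6 libraries together, too few to compare the genotypes. Of 10 T and NK cell markers 8 were at 0, as were 7 of 10 erythroid and 3 of 10 myeloid markers, and these lists summed to at most 2.53, 9.81 and 88.3 CPM in any library. Most of the myeloid sum was Itgam; Lyz2 and S100a9 had 0 counts in every WT library and 2, 4 and 2 and 2, 1 and 3 counts in ΔrsCBE replicates 1 to 3. The part of these cells in the results below was not tested.

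In ΔrsCBE 23 of the 32 kinesins, spindle proteins and cytokinesis genes fell, whereas 8 of 10 centriole genes and all 3 tested augmin subunits did not pass the test. Of the 50 members, 45 passed the count filter and were tested (44 of the 45 reported ones and Haus7, while Haus2 did not pass). Among them 25 fell and 0 rose at an adjusted p-value under 0.05 (edgeR quasi-likelihood test, Benjamini-Hochberg adjustment over all 7792 tested genes). Of all tested genes 1.49% fell and 0.205% rose by the same rule, 1.69% in either direction. At an unadjusted p-value under 0.05, 34 members were lower and 0 were higher, against 6.02% and 4.22% of all tested genes (10.2% in either direction). With DESeq2's Wald test 23 members fell and 0 rose. The 25 genes that fell were 1.74- to 3.15-fold lower. The median log2 fold change of the 45 tested members was -1.03, beside 0.01 for all tested genes. In 31 members every ΔrsCBE library lay below every WT library, against 8.92% of all tested genes, and in 0 members every ΔrsCBE library lay above, against 7.23%. The log2 fold change was below 0 in 41 of the 45 and at -1 or less in 28, beside 48.2% and 1.93% of all tested genes.

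The count of 25 dropped to 16 when WT replicate 3, the deepest library, was left out, and it was 17 to 28 without any other library. Without WT replicate 3, Cep55, Hmmr, Kif14, Kif18b, Kif20b, Kif23, Prc1, Spag5 and Stil lost the call. Without ΔrsCBE replicate 3, Cep55, Hmmr, Kif14, Kif18b, Nusap1, Prc1, Spag5 and Stil lost it. In the male libraries alone, 3 WT libraries against ΔrsCBE replicate 1, 26 of 47 tested members fell, and 22 of these were among the 25; that fit assumes that the lone ΔrsCBE library varies like the WT libraries. It lost Cep55, Kif18b and Stil and gained Cit, Ckap2, Kifc1 and Nek2. With the sex pattern as a covariate over all 6 libraries 19 members fell, and Cep55, Kif18b, Kif20a, Prc1, Spag5 and Stil lost the call. As no WT library is female, the genotype term of the covariate fit also rests on WT against ΔrsCBE replicate 1. The covariate fit is thus no separate check beside the male libraries. In these bulk samples, fewer dividing cells and less of these RNAs in each cell cannot be told apart.

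**Figure D1:**
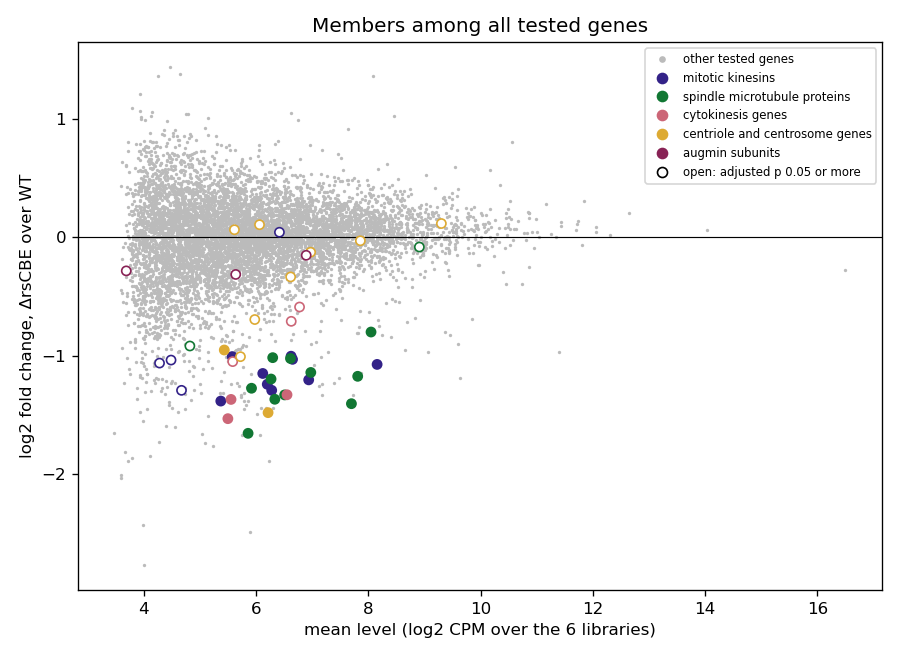
Each point is a tested gene, with its mean level (log2 CPM over the 6 libraries) on the x axis and its log2 fold change (ΔrsCBE over WT) on the y axis; members are coloured by role, and filled symbols have an adjusted p under 0.05. The 25 filled members lie between -1.66 and -0.80 at middle levels, right of the genes with the fewest counts, while Cntrl and Numa1, far to the right, lie near 0.

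Sequence around the members' start sites was searched for the cell cycle homology region core (TTTGAA) and the CCAAT box (CCAAT). Through this pair of elements the MuvB complexes and NF-Y are known to act on mitotic genes. Both strands were searched in RefSeq windows on GRCm38.p6 that run from 250 bases before to 50 bases after a start; no motif searched contains another, and a match is not shown to be a bound site. A window was matched for 45 of the 50 members, 53 windows in all; Kif20a, Tpx2, Dlgap5, Cep192 and Haus1 had none. TTTGAA occurred in 20 of 25 windows (80%) of members that fell and in 7 of 23 (30.4%) of tested members that did not pass. It was in 17.9% of all 32851 windows and 12.5% of the 7723 windows of tested genes. Windows of a gene can overlap, so genes were counted too. By gene, TTTGAA was in 17 of 22 members that fell, 7 of 19 that did not pass and 892 of 6000 tested genes. Counting only matches that begin between 100 bases before and 50 bases after the start, the shares were 76% of the windows of members that fell, 17.4% of those that did not pass, and 5.14% of the windows of tested genes. CCAAT occurred in 76% and 47.8% of these 2 sets of member windows, and in 37.9% of the windows of tested genes. Windows with both motifs made up 64% and 17.4% of the sets, against 5.35% of the windows of tested genes. Of the E2F-type motifs, TTTCCCGC was in 0 of the 53 member windows, against 1.07% of all windows and 2.32% of those of tested genes. TTTGGCGC was in 3, those of Kif15, Kif18a and Arhgap11a, against 0.514% of all windows and 1.01% of those of tested genes.

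The 100 bases before the start are shown for the 7 members that fell and have TTTGAA wholly inside that stretch. These carry the shared element. The same bases are shown for Pcnt and Haus3, the most counted members that did not pass among those with a single window near the GENCODE gene start. Cntrl has 4 windows, and the window of Numa1 lies inside the gene. The stretch of Haus3 also lies inside its GENCODE gene, which starts on the minus strand at 34169527, because its RefSeq start is farther in. Members that did not pass were not all without the element: 7 of their 23 windows hold it, a window of Cntrl among them. Capitals mark TTTGAA or its reverse complement and CCAAT or its reverse complement. Every sequence is 5′ to 3′ on the strand of the gene and ends at the base before the start.
Kif11 (chr19:37376282-37376381, plus strand): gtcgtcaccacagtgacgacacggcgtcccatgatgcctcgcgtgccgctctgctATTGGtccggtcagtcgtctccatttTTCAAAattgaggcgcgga
Kif15 (chr9:122950981-122951080, plus strand): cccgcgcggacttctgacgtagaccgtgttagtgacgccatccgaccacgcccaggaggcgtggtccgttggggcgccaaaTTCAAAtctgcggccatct
Kif22 (chr7:127042421-127042520, minus strand): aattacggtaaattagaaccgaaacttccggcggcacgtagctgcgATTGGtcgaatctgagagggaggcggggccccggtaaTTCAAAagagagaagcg
Prc1 (chr7:80294376-80294475, plus strand): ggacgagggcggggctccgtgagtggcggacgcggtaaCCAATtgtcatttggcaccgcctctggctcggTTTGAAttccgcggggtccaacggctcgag
Ckap2l (chr2:129297213-129297312, minus strand): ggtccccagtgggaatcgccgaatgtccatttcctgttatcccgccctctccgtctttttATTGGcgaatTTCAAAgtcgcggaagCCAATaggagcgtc
Ckap5 (chr2:91526662-91526761, plus strand): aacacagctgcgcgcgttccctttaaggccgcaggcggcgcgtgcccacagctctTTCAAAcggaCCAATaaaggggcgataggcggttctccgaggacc
Cep55 (chr19:38054941-38055040, plus strand): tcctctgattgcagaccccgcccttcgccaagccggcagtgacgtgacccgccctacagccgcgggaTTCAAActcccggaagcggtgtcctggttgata
Pcnt (chr10:76442913-76443012, minus strand): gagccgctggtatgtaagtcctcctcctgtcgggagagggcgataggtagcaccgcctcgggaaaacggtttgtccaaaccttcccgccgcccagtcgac
Haus3 (chr5:34169425-34169524, minus strand): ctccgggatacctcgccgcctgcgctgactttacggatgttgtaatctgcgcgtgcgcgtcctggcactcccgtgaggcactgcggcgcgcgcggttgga

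In these 7 stretches the match began 17 bases before the start in Kif22, 19 in Kif11 and Kif15, 30 in Ckap2l and Prc1, 33 in Cep55 and 45 in Ckap5. The CCAAT box was present in 5 of the 7 and missing from those of Kif15 and Cep55. Neither element occurred in the stretches of Pcnt and Haus3, and CCAAT matches lie outside them, 37 bases after the start in Pcnt and 158 and 233 bases before the start in Haus3.

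**Figure D2:**
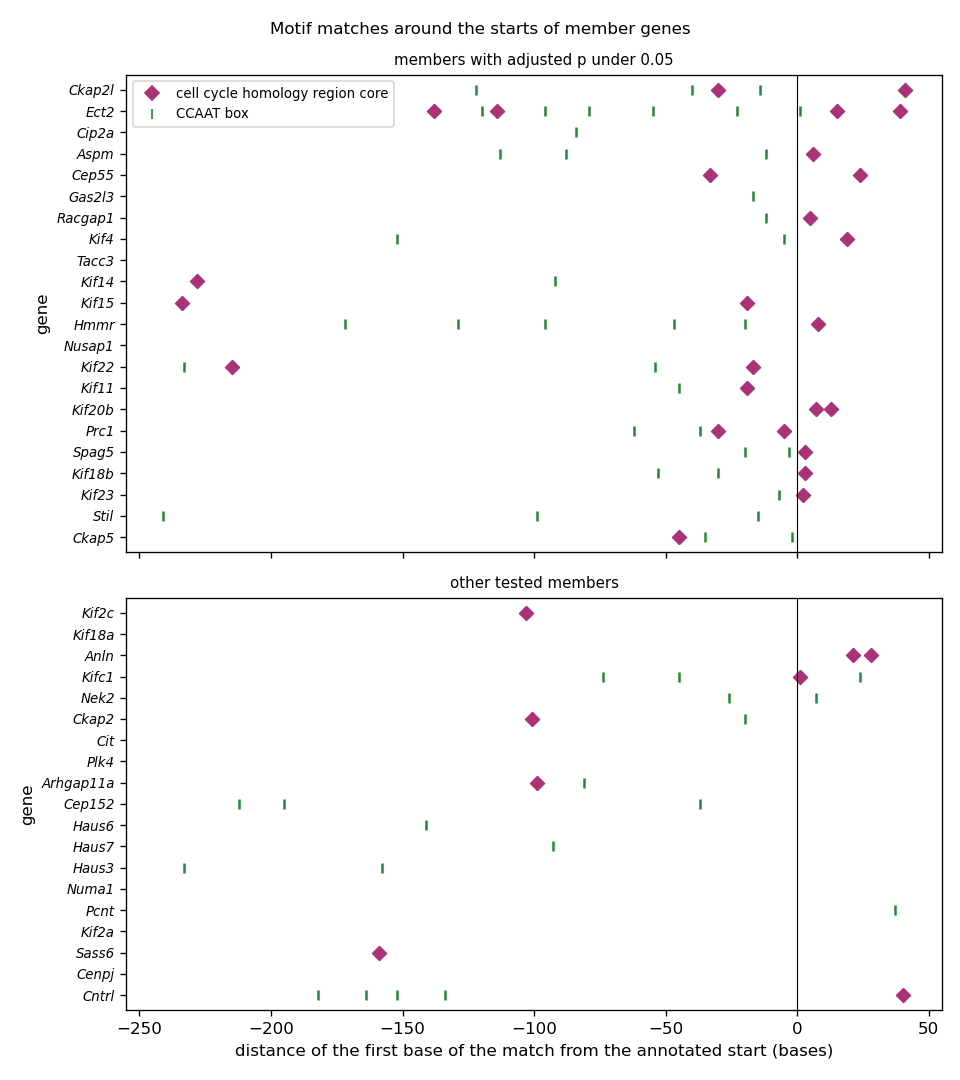
For each tested member with a RefSeq window, diamonds mark the start of a match to the cell cycle homology region core and bars a match to the CCAAT box, by distance in bases from the annotated start (0), with genes ordered by fold change and several starts of a gene laid over each other. Diamonds cluster around the start in the upper panel, which holds the members with an adjusted p under 0.05, and are sparser in the lower panel, which holds the other tested members.

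Of the 13 mitotic kinesins, all tested, 9 fell, with a median log2 fold change of -1.07 for the 13. Coordinates of genes are those of GENCODE M21 on GRCm38, the assembly also called mm10, and the values of a genotype are listed for replicates 1, 2 and 3 in that order. Kif11 (chromosome 19, 37376403 to 37421859, plus strand), the motor that slides antiparallel microtubules apart to separate the spindle poles, had 373, 338 and 439 CPM in WT and 172, 244 and 133 CPM in ΔrsCBE. Every ΔrsCBE library was thus below every WT library, with replicate 2 nearest to WT (log2 fold change -1.07, SE 0.17, edgeR adjusted p = 0.000945). Kif15, a motor that can back up Kif11 in keeping the spindle bipolar, had 167, 186 and 165 CPM in WT and 64.2, 90.9 and 65.7 CPM in ΔrsCBE. Its 3 WT values lay closer together than its ΔrsCBE values (log2 fold change -1.20, SE 0.17, edgeR adjusted p = 0.000117).

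The chromokinesins, which bind chromosome arms, both fell. Kif4 (chromosome X, 100625737 to 100727214, plus strand), which also shortens the central spindle with Prc1, had 92.5, 105 and 124 CPM in WT and 48.4, 45.5 and 39.2 CPM in ΔrsCBE. The ΔrsCBE libraries, 1 male and 2 female in pattern, lay close together although the gene is X-linked (log2 fold change -1.29, SE 0.20, edgeR adjusted p = 0.000253). Kif22 had 107, 83.4 and 91.9 CPM in WT and 36.3, 45.5 and 45.5 CPM in ΔrsCBE, again without overlap (log2 fold change -1.15, SE 0.20, edgeR adjusted p = 0.00127).

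The kinesins of the central spindle and midbody fell as well. Kif23 is the motor subunit of centralspindlin, and its levels were 123, 123 and 141 CPM in WT and 49.6, 79.6 and 64.4 CPM in ΔrsCBE. The difference was about as large as for Kif11 (log2 fold change -1.01, SE 0.19, edgeR adjusted p = 0.00216). Kif20a, which carries the chromosomal passenger complex to the central spindle, had 56.8, 88.3 and 44.3 CPM in WT and 18.2, 23.8 and 25.3 CPM in ΔrsCBE, with WT replicate 2 well above the other WT libraries (log2 fold change -1.38, SE 0.28, edgeR adjusted p = 0.00582). Its exons overlap those of Cdc23 on the opposite strand, which had 340 counts against 185 for Kif20a, and without strand the reads of this pair cannot be told apart. The call of Kif20a was lost with the sex covariate (log2 fold change -1.67) and without WT replicate 2 (-1.13). For Kif20b, a motor of the midbody, the levels were 135, 110.3 and 147 CPM in WT and 43.6, 81.6 and 69.5 CPM in ΔrsCBE. All 3 ΔrsCBE libraries were below WT, replicate 1 by the most (log2 fold change -1.03, SE 0.20, edgeR adjusted p = 0.00335). Kif14, which acts with citron kinase in cytokinesis, had 97.3, 108 and 103 CPM in WT and 23.0, 66.1 and 37.9 CPM in ΔrsCBE. The WT values were nearly equal and the ΔrsCBE values spread widely (log2 fold change -1.24, SE 0.25, edgeR adjusted p = 0.00584).

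Kif18b, which trims astral microtubules, was the weakest call among the kinesins. It had 69.8, 39.2 and 67.3 CPM in WT and 31.5, 35.1 and 24.0 CPM in ΔrsCBE, so that ΔrsCBE replicate 2 came close to WT replicate 2 (log2 fold change -1.01, SE 0.25, edgeR adjusted p = 0.0307), and it lost the call with DESeq2's Wald test and in the male libraries alone (adjusted p = 0.170 and 0.179), at log2 fold changes of -0.99 and -0.97. The 4 kinesins short of the threshold were Kif2c, Kif18a, Kifc1 and Kif2a. Kif2c, Kif18a and Kifc1 had log2 fold changes of -1.29, -1.06 and -1.04, as large as those of the called kinesins, but with only 114, 83 and 99 counts in all and standard errors of 0.36, 0.40 and 0.39 (edgeR adjusted p = 0.0659, 0.282 and 0.278). A close copy of Kifc1, Kifc5b, had 60 counts, and reads of the 2 genes are uncertain where the sequences are alike.

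Kif2a and Kif2c are related motors of the kinesin-13 type, which take tubulin off microtubule ends instead of walking, and Kif2a also acts in cells that do not divide. Kif2a had 89.2, 46.6 and 95.03 CPM in WT and 78.7, 83.7 and 89.7 CPM in ΔrsCBE, with WT replicate 2 as the lowest library and the rest of both genotypes mixed (log2 fold change 0.04, SE 0.20, edgeR adjusted p = 0.977). For Kif2c the levels were 19.5, 34.3 and 42.0 CPM in WT and 9.68, 18.6 and 11.4 CPM in ΔrsCBE, and ΔrsCBE replicate 2 lay just below WT replicate 1. The 95% intervals of the log2 fold changes were -0.38 to 0.46 for Kif2a and -2.03 to -0.55 for Kif2c; the difference between these genes was not tested.

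**Figure D3:**
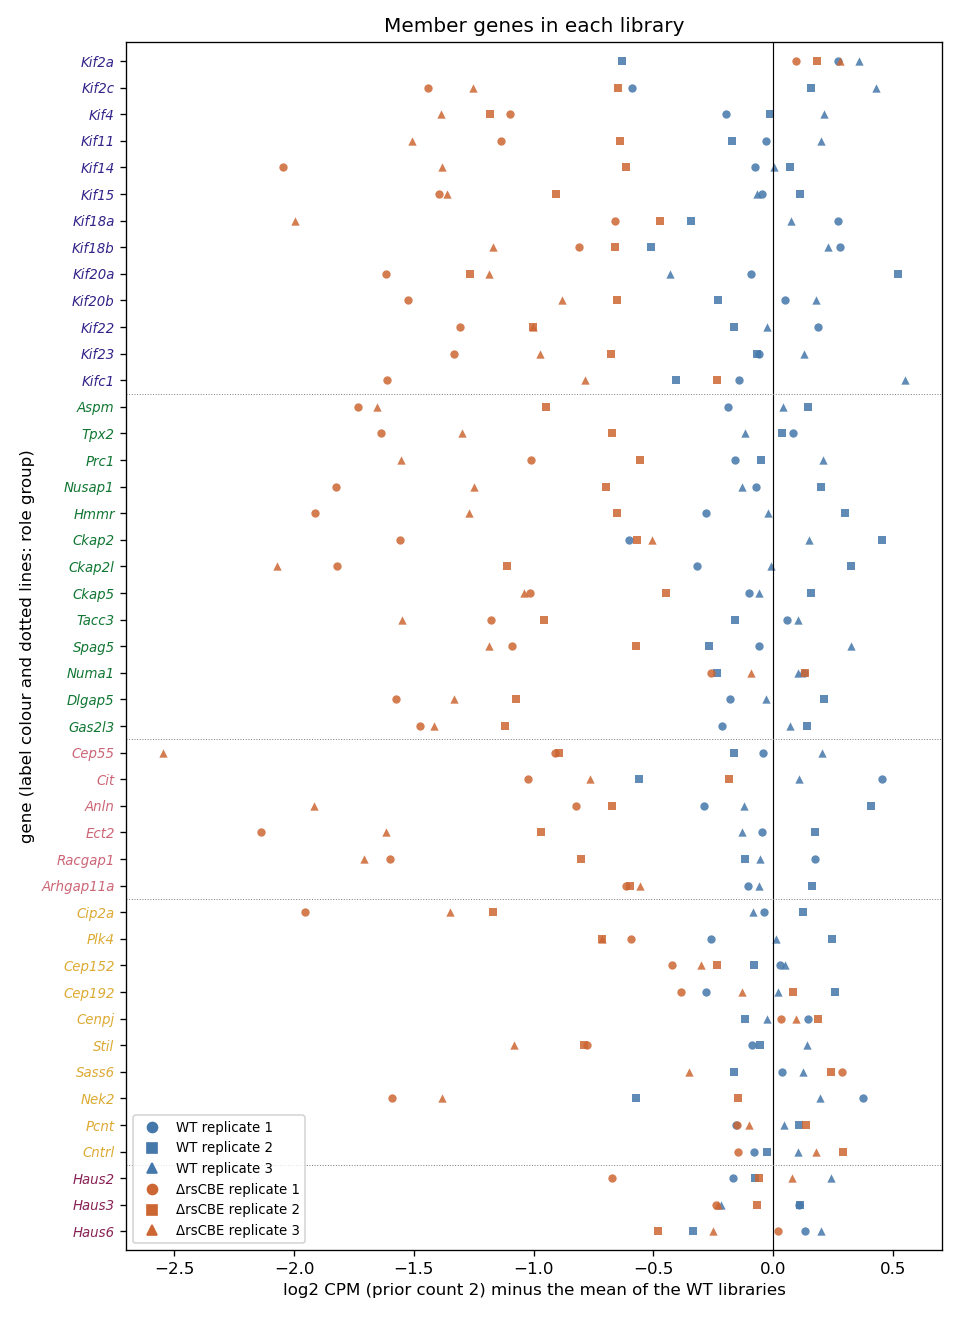
Each row is 1 of the 45 reported members and each symbol a library, placed by its log2 CPM (prior count 2) minus the mean of the WT libraries; label colours and dotted lines set off the role groups. Orange ΔrsCBE symbols stand to the left of the blue WT symbols for most kinesins, spindle proteins and cytokinesis genes, with ΔrsCBE replicate 2 (square) usually nearest to WT, and the colours mix for Kif2a, Numa1, Cep192, Cenpj, Sass6, Pcnt, Cntrl and the augmin genes.

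Among the 13 spindle microtubule proteins 11 fell, the largest number of any role group here, and the median log2 fold change was -1.17. The lowest fold change of all members was that of Ckap2l (chromosome 2, 129268210 to 129297212, minus strand), a spindle protein abundant in neural progenitors, which had 69.8, 110.3 and 87.1 CPM in WT and 23.0, 39.3 and 18.9 CPM in ΔrsCBE. That is 3.15-fold lower in ΔrsCBE (log2 fold change -1.66, SE 0.25, edgeR adjusted p = 0.00026). Aspm (chromosome 1, 139454772 to 139494091, plus strand), which holds microtubule minus ends at the poles and is known for its role in microcephaly, was the member with the lowest adjusted p-value. Its levels were 266, 336 and 313 CPM in WT and 89.6, 156 and 94.7 CPM in ΔrsCBE, and the highest ΔrsCBE library was well below the lowest WT library (log2 fold change -1.41, SE 0.17, edgeR adjusted p = 4.17e-05).

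Proteins that start or stabilise spindle microtubules fell as well. Tpx2, which activates Aurora A and seeds microtubules near chromatin, had 185, 179 and 161 CPM in WT and 54.5, 109 and 69.5 CPM in ΔrsCBE. Its WT values were nearly level (log2 fold change -1.14, SE 0.19, edgeR adjusted p = 0.00103). Nusap1, which bundles microtubules around chromosomes, had 300.1, 363 and 287 CPM in WT and 87.2, 193 and 131 CPM in ΔrsCBE, and ΔrsCBE replicate 2 stood well above the other ΔrsCBE libraries (log2 fold change -1.17, SE 0.21, edgeR adjusted p = 0.00801). Dlgap5, which stabilises kinetochore fibres, had 115, 152 and 128 CPM in WT and 42.4, 61.0 and 50.5 CPM in ΔrsCBE. Here the ΔrsCBE libraries were close together (log2 fold change -1.33, SE 0.19, edgeR adjusted p = 0.000117). Hmmr, a partner of Tpx2 in spindle assembly, had 87.6, 132 and 105 CPM in WT and 26.6, 67.2 and 42.9 CPM in ΔrsCBE, with ΔrsCBE replicate 1 the lowest (log2 fold change -1.20, SE 0.24, edgeR adjusted p = 0.00668).

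Ckap5 and Tacc3 form a complex on kinetochore fibres, in which Ckap5 is a microtubule polymerase. Ckap5 had 315, 378 and 325 CPM in WT and 166, 247 and 163 CPM in ΔrsCBE, the smallest change among the genes that fell (log2 fold change -0.80, SE 0.15, edgeR adjusted p = 0.00235). Tacc3 had 86.0, 73.6 and 88.7 CPM in WT and 35.1, 41.3 and 26.5 CPM in ΔrsCBE (log2 fold change -1.28, SE 0.22, edgeR adjusted p = 0.00103). The groups stayed apart for both genes. Spag5, which guards chromosome alignment and centrosome integrity, had 94.1, 80.9 and 124 CPM in WT and 44.8, 65.1 and 41.7 CPM in ΔrsCBE, with WT replicate 3 the highest (log2 fold change -1.02, SE 0.21, edgeR adjusted p = 0.00668).

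Prc1 crosslinks antiparallel microtubules into the central spindle, and its levels were 114, 123 and 147 CPM in WT and 61.7, 85.8 and 41.7 CPM in ΔrsCBE. The highest ΔrsCBE value was again that of replicate 2 (log2 fold change -1.02, SE 0.21, edgeR adjusted p = 0.00565). Prc1 and Spag5 lost the call with the sex covariate (log2 fold changes -1.08 and -1.22), without WT replicate 3 (-0.88 and -0.79) and without ΔrsCBE replicate 3 (-0.81 and -0.90). Gas2l3, which links actin and microtubules, had 99.0, 128 and 121 CPM in WT and 39.9, 51.7 and 41.7 CPM in ΔrsCBE, a clear gap between narrow groups (log2 fold change -1.37, SE 0.19, edgeR adjusted p = 0.000117). Exons of Kif4, Prc1, Nusap1 and Tacc3 overlap opposite-strand genes with fewer counts, 36 for Pdzd11, 64 for Rccd1, 11 for Oip5 and 79 for Tmem129. The 2 proteins that did not pass were Ckap2 and Numa1. Ckap2, with 126 counts in all, overlapped between genotypes (log2 fold change -0.92, SE 0.35, edgeR adjusted p = 0.281). Numa1, which anchors dynein at the spindle poles and sits in the nucleus between divisions, had 531, 412 and 522 CPM in WT and 404, 532 and 455 CPM in ΔrsCBE. The genotypes overlapped almost fully (log2 fold change -0.08, SE 0.12, edgeR adjusted p = 0.889, 95% interval of the log2 fold change -0.34 to 0.17).

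Of the 6 cytokinesis genes 3 fell, and all 6 had an unadjusted p-value under 0.05, with a median log2 fold change of -1.19. Ect2 (chromosome 3, 27097222 to 27153878, minus strand), the exchange factor that switches on RhoA at the division plane, had 64.9, 76.0 and 61.0 CPM in WT and 13.3, 33.1 and 20.2 CPM in ΔrsCBE. It was 2.89-fold lower in ΔrsCBE (log2 fold change -1.53, SE 0.27, edgeR adjusted p = 0.00144). Racgap1, the partner of Kif23 in centralspindlin that binds Ect2, had 151, 123 and 128 CPM in WT and 42.4, 75.4 and 39.2 CPM in ΔrsCBE. The lowest WT library exceeded the highest ΔrsCBE library by a wide margin (log2 fold change -1.33, SE 0.21, edgeR adjusted p = 0.000445). Cep55, which brings the abscission machinery to the midbody, had 61.7, 56.4 and 73.6 CPM in WT and 32.7, 33.1 and 8.84 CPM in ΔrsCBE. Most of its spread came from ΔrsCBE replicate 3 (log2 fold change -1.37, SE 0.30, edgeR adjusted p = 0.0105), and in the male libraries alone it did not pass (log2 fold change -1.01, edgeR adjusted p = 0.111).

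Arhgap11a, a RhoA-inactivating protein and the cytokinesis gene with the most counts, had 122, 147 and 126 CPM in WT and 84.7, 85.8 and 88.4 CPM in ΔrsCBE. The ΔrsCBE values were nearly equal and all below WT, but the change was small and did not pass (log2 fold change -0.59, SE 0.16, edgeR adjusted p = 0.0659). Anln, the scaffold of the contractile ring, missed the threshold narrowly (log2 fold change -1.05, SE 0.28, edgeR adjusted p = 0.0519). Cit, the citron kinase of the midbody, had 156, 76.0 and 122 CPM in WT and 54.5, 99.2 and 65.7 CPM in ΔrsCBE, with overlap between ΔrsCBE replicate 2 and WT replicate 2 (log2 fold change -0.71, SE 0.23, edgeR adjusted p = 0.16).

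The 10 centriole and centrosome genes did not move as a block: 2 fell, 8 did not pass, and the median log2 fold change was -0.23. Cip2a (chromosome 16, 48994185 to 49019709, plus strand), an inhibitor of the phosphatase PP2A that acts in mitosis, had 107, 120.2 and 104 CPM in WT and 26.6, 47.5 and 41.7 CPM in ΔrsCBE. It was 2.79-fold lower, without overlap (log2 fold change -1.48, SE 0.21, edgeR adjusted p = 0.000117). Stil, which with Sass6 builds the cartwheel of a new centriole, had 50.3, 51.5 and 59.4 CPM in WT and 30.3, 30.0 and 24.0 CPM in ΔrsCBE. The groups were separate, but the call was near the threshold (log2 fold change -0.95, SE 0.24, edgeR adjusted p = 0.0352) and was lost in 5 of the 6 fits that leave out 1 library, at log2 fold changes of -1.01 to -0.84 over the 6. Sass6 itself showed overlapping groups (log2 fold change 0.06, SE 0.24, edgeR adjusted p = 0.972). Exons of Sass6 overlap those of Gm42893 and Trmt13 on the opposite strand, which together had 131 counts against 228 for Sass6.

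Plk4, the kinase that licenses centriole duplication, had a log2 fold change of -0.70 (SE 0.21, edgeR adjusted p = 0.101) and lower values in all 3 ΔrsCBE libraries. Its recruiting scaffolds Cep152 and Cep192 had log2 fold changes of -0.34 and -0.13, with 95% intervals of -0.68 to 0.01 and -0.48 to 0.23. Cenpj, which sets centriole length, had a log2 fold change of 0.10 (95% interval -0.30 to 0.51). Nek2, the kinase that lets the centrosomes part, had 82.7, 41.7 and 72.9 CPM in WT and 19.4, 56.8 and 22.7 CPM in ΔrsCBE, with ΔrsCBE replicate 2 inside the WT range and the other 2 below it (log2 fold change -1.01, SE 0.34, edgeR adjusted p = 0.217). In the male libraries alone it passed (log2 fold change -1.82, edgeR adjusted p = 0.00139), as it did without ΔrsCBE replicate 2 (-1.70).

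The centriole genes with the most counts were Cntrl and Pcnt. Cntrl (chromosome 2, 35109492 to 35178822, plus strand) encodes centriolin, a protein of the older centriole, and had 568, 589 and 645 CPM in WT and 542, 734 and 679 CPM in ΔrsCBE. The ΔrsCBE libraries spanned the WT range (log2 fold change 0.11, SE 0.12, edgeR adjusted p = 0.807, 95% interval -0.12 to 0.35). Pcnt, the scaffold of the pericentriolar material, had 208, 250.1 and 239 CPM in WT and 208, 255 and 216 CPM in ΔrsCBE, also with full overlap (log2 fold change -0.03, SE 0.13, edgeR adjusted p = 0.976, 95% interval -0.31 to 0.25). These intervals leave out a log2 fold change of the size seen in any member that fell.

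Augmin attaches to existing microtubules and recruits the gamma-tubulin ring, so that the spindle grows by branching. Of its 8 subunits 3 were tested and 0 fell or rose; the smallest unadjusted p-value gave an edgeR adjusted p of 0.718 (Haus6), and 0 of the 3 had an unadjusted p-value under 0.05 or a call with DESeq2's Wald test. Haus3 had 135, 135 and 107 CPM in WT and 105, 119 and 106 CPM in ΔrsCBE, with overlapping groups (log2 fold change -0.15, SE 0.16, edgeR adjusted p = 0.825). Haus6 had 55.2, 39.2 and 57.8 CPM in WT and 50.8, 35.1 and 41.7 CPM in ΔrsCBE, where the lowest library of all was ΔrsCBE replicate 2 (log2 fold change -0.32, SE 0.23, edgeR adjusted p = 0.718). Haus7 had 51 counts and a wide error (log2 fold change -0.28, SE 0.51, edgeR adjusted p = 0.917). Haus1, Haus2, Haus4, Haus5 and Haus8 had too few counts for the test, so a difference could not be detected in them. Haus1, Haus2 and Haus8 overlap exons of genes on the opposite strand, Atp5a1, Lrrc57 and Myo9b, that had 2231, 73 and 1069 counts.

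**Figure D4:**
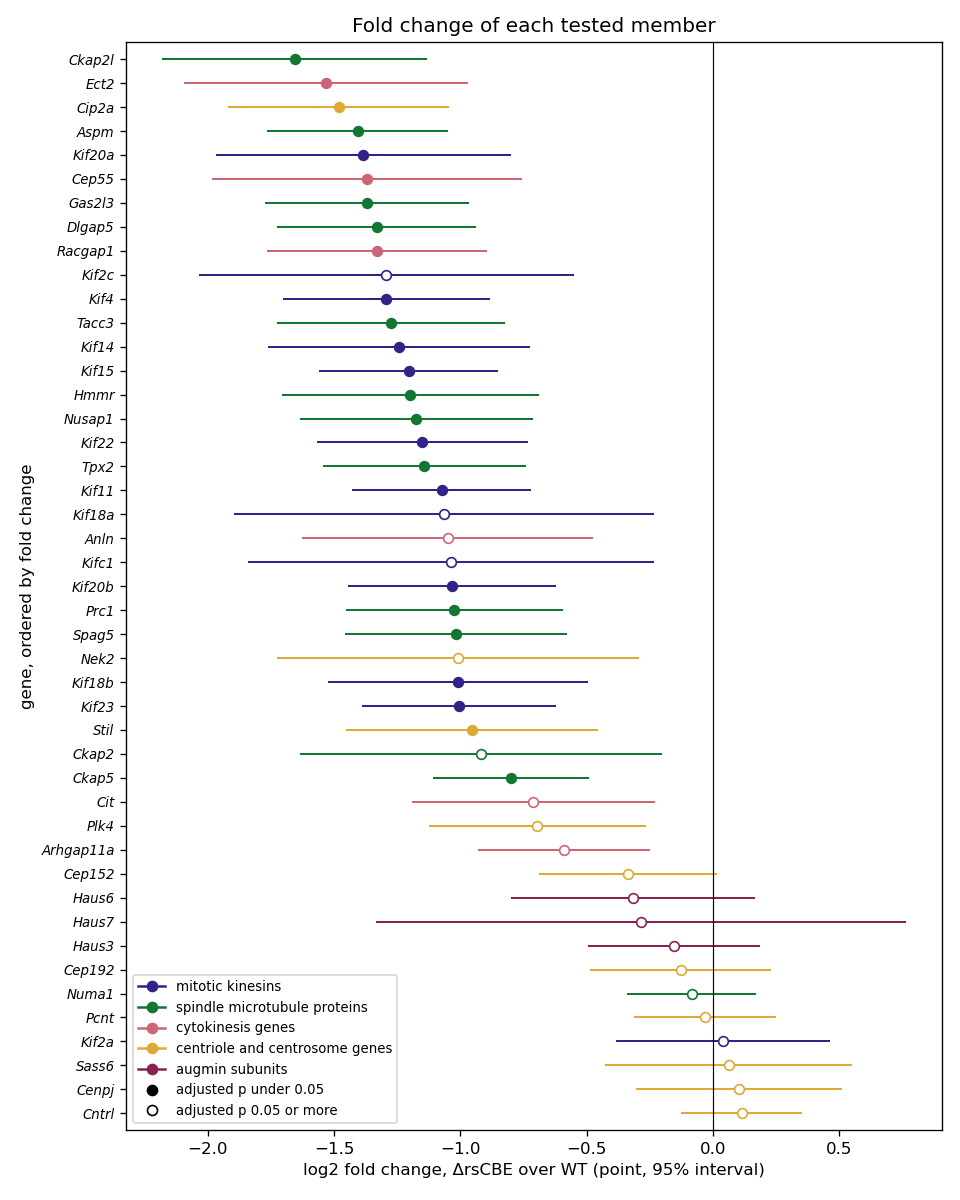
Points are the log2 fold changes (ΔrsCBE over WT) of the 45 tested members with 95% intervals from edgeR, ordered by size and coloured by role; filled points have an adjusted p under 0.05. The fold changes run from -1.66 (Ckap2l) to 0.11 (Cntrl), and the members near 0 are centriole and augmin genes together with Kif2a and Numa1.

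Summed over its genes, tested or not, each role group gave a level per library. The kinesins summed to 1398 ± 112 CPM (SD, n = 3) in the WT libraries and to 688 ± 140.2 CPM in the ΔrsCBE libraries. Spindle proteins summed to 2414 ± 119 and 1318 ± 310.2 CPM, and cytokinesis genes to 580.0 ± 23.3 and 289 ± 68.0 CPM. For these 3 groups the highest ΔrsCBE library was below the lowest WT library. Centriole genes summed to 1482 ± 70.6 CPM in WT and 1340.4 ± 174 CPM in ΔrsCBE, with ΔrsCBE replicate 2 inside the WT range. Augmin subunits summed to 229 ± 15.1 and 206 ± 1.81 CPM, and although the groups did not overlap, no tested subunit passed the test. In WT, Cntrl and Pcnt had means of 601 and 232 CPM in the centriole sum, and Haus3 125 CPM in the augmin sum. The centriole and augmin sums thus mostly follow these abundant genes.

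**Figure D5:**
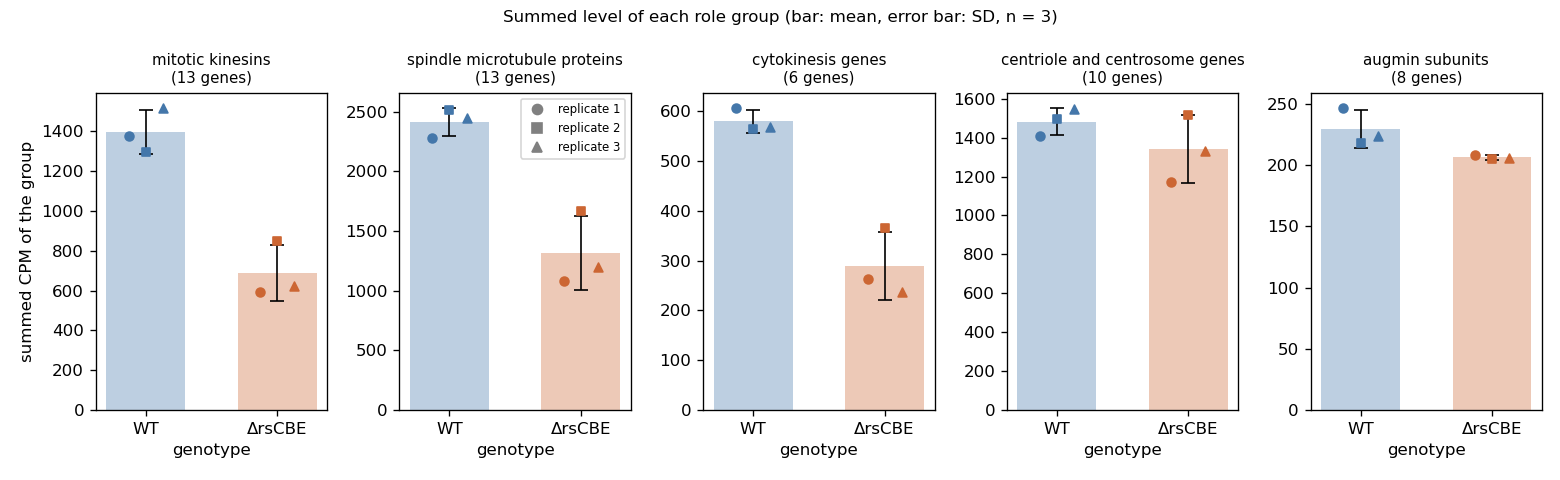
For each role group, bars give the mean of the summed CPM of its genes in WT and ΔrsCBE, error bars the SD (n = 3) and symbols the libraries by replicate number; each panel has its own y axis starting at 0. The ΔrsCBE mean is 49.2% of WT for kinesins, 54.6% for spindle proteins and 49.8% for cytokinesis genes, and 90.4% and 89.9% for centriole and augmin genes.

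As a share of all counts, the 50 members took 0.586% in WT replicate 1 (Wilson 95% bounds 0.567% and 0.605%), 0.580% in replicate 2 (0.557% and 0.603%) and 0.612% in replicate 3 (0.599% and 0.625%). The ΔrsCBE libraries gave 0.327% for replicate 1 (0.315% and 0.339%), 0.448% for replicate 2 (0.435% and 0.461%) and 0.352% for replicate 3 (0.339% and 0.365%). These bounds cover counting error only. All 3 ΔrsCBE libraries were below all WT libraries, and the means were 0.592% ± 0.0171 and 0.375% ± 0.0638 (SD, n = 3; exact two-sided permutation p = 0.1, the smallest that 3 against 3 can give). Cntrl, Numa1 and Pcnt were picked after their values were seen, as abundant members near 0, so their share had to be higher where the other members were lower. They held 20.5% to 22.3% of the member counts in WT libraries and 33.0% to 37.5% in ΔrsCBE libraries.

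Within ΔrsCBE, replicate 2 stood nearest to WT. It was the highest of the 3 ΔrsCBE libraries in 35 of the 45 tested members and in 22 of the 25 that fell. Over those 25, the median log2 ratio to the WT mean was -0.82 in replicate 2, against -1.51 in replicate 1 and -1.38 in replicate 3. Replicate 1, the male ΔrsCBE library, lay below all 3 WT libraries in 39 of the 45 tested members, replicate 2 in 32 and replicate 3 in 36. By the median over those 25 and by the number below all WT libraries, both female-pattern libraries were nearer to WT than the male one. Over all 45 tested members the median log2 ratio was -1.13 in replicate 1, -0.68 in replicate 2 and -1.26 in replicate 3. By that median replicate 3 was the farthest from WT. Replicates 1 and 3 were each the highest ΔrsCBE library in 5 of the 45. The part of sex in these values was not tested.

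Levels can be compared between genes only per length, and per kilobase of the longest coding transcript in GENCODE M21 the most abundant members in WT were Nusap1 (89.9 CPM per kb), Kif11 (79.6), Cntrl (78.9), Numa1 (68.0) and Haus3 (60.5). In ΔrsCBE the order was Cntrl (85.6), Numa1 (64.6), Haus3 (53.1), Nusap1 (38.9) and Kif11 (37.9). The lowest reported members in WT were Haus2 (4.17 CPM per kb) and Kif18a (6.78).

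Other genes of the same processes were compared by 5 lists. Of 11 genes of the Aurora and Polo kinases, the chromosomal passenger complex and mitotic cyclin-kinase control, 10 were tested, 5 fell and 0 rose. The median log2 fold change of the 10 was -1.12. Birc5 (survivin), a subunit of the passenger complex, had 63.3, 85.8 and 76.8 CPM in WT and 21.8, 39.3 and 26.5 CPM in ΔrsCBE (log2 fold change -1.33, SE 0.24, edgeR adjusted p = 0.00184). Its scaffold Incenp had 189.8, 199 and 152 CPM in WT and 94.4, 125 and 104 CPM in ΔrsCBE (log2 fold change -0.71, SE 0.16, edgeR adjusted p = 0.0164). Aurkb, the kinase of that complex, and Plk1, the Polo kinase, had log2 fold changes of -1.24 and -1.32 (edgeR adjusted p = 0.00668 and 0.0106). In 8 of the 10 tested genes of this list every ΔrsCBE library lay below every WT library, against 8.92% of all tested genes. In 0 of the 10 every ΔrsCBE library lay above, against 7.23%.

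Genes that serve microtubules outside mitosis as well gave 0 calls. Of all tested genes, 6.02% were lower and 4.22% higher at an unadjusted p-value under 0.05. Without overlap between the genotypes, 8.92% were lower and 7.23% higher. Of 20 tested genes of the gamma-tubulin ring and pericentriolar scaffold, 0 fell or rose, and the median log2 fold change was -0.08 (range -0.87 to 0.28). At an unadjusted p-value under 0.05, 3 were lower and 0 higher, and without overlap 4 were lower and 0 higher. The gene of this list with the most counts, Pcm1, a component of centriolar satellites, had a log2 fold change of -0.17 (SE 0.13). Among 19 tested plus-end and dynein genes 0 were called, and 2 were lower and 0 higher at an unadjusted p-value under 0.05. Without overlap, 3 were lower and 1 higher. The median was -0.02 (range -1.02 to 0.39), and the dynein heavy chain Dync1h1 had -0.02 (SE 0.10). Among 29 tested genes of septins, the RhoA pathway and abscission 0 were called. At an unadjusted p-value under 0.05, 2 were lower and 2 higher, and without overlap 0 were lower and 1 higher. The median was -0.01 (range -0.96 to 0.61), and the myosin Myh9 had 0.06 (SE 0.11). The list of transport kinesins and light chains, most of which carry cargo along microtubules, had 13 tested genes. Of these 0 were called, without overlap 3 were lower and 1 higher, and the median was -0.15. At an unadjusted p-value under 0.05, 1 was lower and 1 higher. The lower one was Kif24, without overlap (log2 fold change -1.05, SE 0.32, edgeR adjusted p = 0.107). The most counted gene of the list, Kif21b, had 779, 714 and 828 CPM in WT and 889.7, 943 and 929.6 CPM in ΔrsCBE. Every ΔrsCBE library was above WT, but Kif21b did not pass (log2 fold change 0.25, SE 0.10, edgeR adjusted p = 0.33). DESeq2's Wald test also called 0 genes in each of these 4 lists.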

How the data were processed

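RNA was measured in small pre-B cells from bone marrow, 3 WT and 3 ΔrsCBE libraries. The deposited table held raw read counts per gene symbol with no normalization, and per the labels' protocols ribosomal RNA was depleted and a SMARTer stranded total RNA kit was used. The submitters' processing notes name Trim Galore 0.6.10, STAR 2.7.11, HTSeq, DESeq2 and mm10; the annotation and the strand setting of counting are not given in the sources used here. Groups came from the genotype label and columns from the library names. Members, lists, tests and alternatives were chosen with earlier results of these data known.

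Counts were fitted with edgeR 4.0.16 in R 4.3.3 (filterByExpr with a minimum count of 10, TMM scaling, robust quasi-likelihood test on genotype), which kept 7792 genes; p-values were adjusted by Benjamini-Hochberg over all of them, with a threshold of 0.05. CPM are counts scaled to a common, TMM-adjusted total over the tested genes, and log2 CPM used a prior count of 2. Standard errors are the log2 fold change divided by the square root of F. The script was tested on simulated data. Alternatives were other scalings and filters, DESeq2 1.42.0, a replicate block, the sex pattern, male libraries only and leaving out each library.

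All members are named; values per library are given for members past the threshold and at least the 2 most counted of each role, and from each pathway list at most 4 genes past the threshold and the most counted one. Kif2a, Kif2c and Nek2 were shown per library in addition, and Kif24 was named, after their values were seen. Promoters came from RefSeq on GRCm38.p6 and gene coordinates from GENCODE M21. Totals of 428106 to 1300805 counts limit precision for genes with few counts.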

Additional observations from a re-analysis of the deposited data

How the results depend on the processing

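Of the member fold changes under the alternatives, 631 kept direction and call, 25 gained and 35 lost a call, and 13 reversed; the cause was not tested. With the sex pattern as a covariate 87 genes passed instead of 132, and 19 members fell. Leaving out 1 library at a time gave 59 to 187 genes and 16 to 28 members that fell. The lowest counts came without WT replicate 3 (59 genes, 16 members) and without ΔrsCBE replicate 3 (59 genes, 17 members). In every setting 0 members rose, and the median ran from -1.28 to -0.89. Other scalings and filters gave 25 to 29 members that fell. As mean log2 CPM over the reported members, the difference between genotypes was -0.87. Kif2a and Cntrl changed sign with the covariate (-0.062 and -0.15) and in male libraries alone (-0.063 and -0.15). Both fits rest on WT against ΔrsCBE replicate 1, so their fold changes had to be alike. Without 1 library, log2 fold changes ran from -0.13 to 0.25 for Kif2a, -0.13 to 0.026 for Pcnt, -0.20 to 0.0010 for Numa1 and -0.048 to 0.24 for Sass6. The replicate block called 136 genes and 24 members lower (Kif18b and Stil lost, Anln gained). Deviations of same-numbered libraries correlated at 0.0131, 0.0197 and 0.00908 over genes, and those of differently numbered ones at -0.0472 to 0.0345. Values this near 0 in libraries of this depth cannot decide whether the numbers pair the samples. All alternatives were chosen with earlier results known.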

Other observations

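The core of the cell cycle homology region was also present in promoters of tested genes that are not members. Counting matches that begin between 100 bases before and 50 bases after a RefSeq start, 356 such genes held it, and 29 of them (8.15%) fell in ΔrsCBE, against 44 of 5603 (0.785%) without it. Of the 155 that held both this element and a CCAAT box, 19 (12.3%) fell. The median log2 fold change of the 356 was -0.07, so most genes with the element did not fall. The 29 genes that fell included Knl1, Bub1b and Ndc80 of the kinetochore and its checkpoint, Ncapg and Smc2 of condensin, Top2a, which untangles DNA, and the kinases Plk1 and Aurka. Others of the 29 were the histone genes H2bc7, H2bc11, H2ac15 and H3c2, and Polq, E2f8, Nucks1, Dek and Gm43305. Among the members, 16 of 20 genes with the element and 6 of 21 without it fell. These counts are descriptions without a test.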
